A study of Rattus norvegicus with 6 samples.

Results

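The basolateral amygdala projection neuron genes examined here were Mef2c, Etv1, Rorb, Cux2, Lmo3, Rspo2, Thy1 and Nrgn, chosen by name as 8 of the 38445 genes counted. They were read in the amygdala of adult male Sprague Dawley rats, wild type, killed 1 h after an intraperitoneal injection of saline (control) or of ethanol at 1 g/kg (ethanol). Every library holds the RNA of 2 rats, which makes 3 libraries and 6 rats per group, and RNA integrity numbers were above 8.0. All p-values given here therefore measure the spread between pools of different rats. The dissected tissue held the central and medial nuclei as well as the basolateral nucleus, so the values describe mixed tissue and not the basolateral nucleus alone. The question for these genes was whether ethanol changed their mRNA within that hour, and how far libraries of the same group differed.

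The basolateral amygdala is built like cortex: most of its neurons are glutamatergic pyramidal-type cells that project to the central amygdala, striatum, cortex and hippocampus. Transcription factors set the identity of such cells, and surface and postsynaptic proteins shape their contacts and plasticity. In rodents Rspo2 is used as a marker of a subset of basolateral projection neurons, whereas Cux2 and Rorb are better known from the upper and middle layers of neocortex. None of the 8 genes is made by these neurons alone, and Mef2c for example is also active in microglia and interneurons. In bulk tissue, fewer cells of a type and less RNA per cell cannot be told apart.

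Pallial glutamatergic neurons were well represented in every library. Slc17a7, the vesicular glutamate transporter of these cells, was read at 413 to 879 CPM (a gene's reads scaled to the TMM-adjusted size of the library). All 15 other glutamatergic projection neuron genes on the list used here passed the filter on low counts, as did all 8 genes of interest. The libraries held 62576504 to 70755739 counted reads, and the smallest count of any of the 8 genes was 513, for Rspo2. Genes of neighbouring cortex were also read in every library, such as Lamp5 of upper-layer cortex at 56.3 to 68.0 CPM, so the label of the 8 genes could not be tied to the basolateral nucleus from these data.

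Per length, the 8 genes spanned a wide range of levels. In TPM (counts divided by the counted length of the gene and scaled to the same total in every library), Nrgn had a control mean of 1619 ± 223 (SD, n = 3 libraries) and ranked 38 among all genes. Thy1 followed at 885 ± 82.3 TPM (SD, n = 3). Lmo3 with 98.4 ± 7.29 TPM (SD, n = 3) and Mef2c with 97.8 ± 10.5 TPM (SD, n = 3) lay side by side, and their ranges over the 6 libraries overlapped. Etv1 stood at 52.0 ± 3.81 TPM (SD, n = 3), followed by Rorb at 17.2 ± 2.07 TPM and Cux2 at 16.7 ± 0.766 TPM (SD, n = 3 for each), a pair whose ranges also overlapped. Rspo2 was the lowest, with 5.73 ± 2.48 TPM (SD, n = 3). No other neighbours in this order overlapped in any library.

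**Figure D1:**
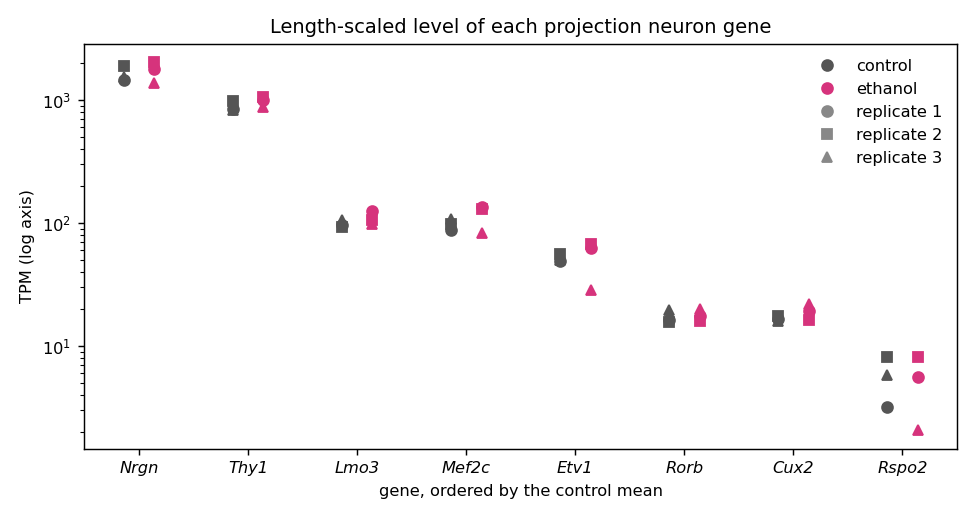
Level of each gene in TPM (log axis) in the 3 control and 3 ethanol libraries, ordered by the control mean; each point is a library. Nrgn and Thy1 lie far above the transcription factors, and Rspo2 runs from 2.06 to 8.16 TPM.

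Promoter sequence was matched by gene identifier for 4 of the 8 genes: Etv1, Nrgn, Rorb and Cux2. They are shown because no promoter was matched for Mef2c, Lmo3, Rspo2 and Thy1, and not because of their levels. Each is the 250 bases before the RefSeq start in the GRCr8 build, 5′ to 3′ on the strand of the gene, with every match to a searched motif in capitals.
Etv1 (chr6:61317179-61317428, plus strand): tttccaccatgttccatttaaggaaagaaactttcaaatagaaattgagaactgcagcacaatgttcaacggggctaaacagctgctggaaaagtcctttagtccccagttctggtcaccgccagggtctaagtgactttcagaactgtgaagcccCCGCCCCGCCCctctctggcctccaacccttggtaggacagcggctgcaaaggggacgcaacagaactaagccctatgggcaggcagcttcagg
Nrgn (chr8:45452418-45452667, minus strand): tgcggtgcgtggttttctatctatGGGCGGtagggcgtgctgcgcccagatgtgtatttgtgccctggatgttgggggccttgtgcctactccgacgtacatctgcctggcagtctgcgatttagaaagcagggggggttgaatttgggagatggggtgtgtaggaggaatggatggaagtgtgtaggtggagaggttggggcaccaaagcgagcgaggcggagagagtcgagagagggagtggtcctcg
Rorb (chr1:225970974-225971223, minus strand): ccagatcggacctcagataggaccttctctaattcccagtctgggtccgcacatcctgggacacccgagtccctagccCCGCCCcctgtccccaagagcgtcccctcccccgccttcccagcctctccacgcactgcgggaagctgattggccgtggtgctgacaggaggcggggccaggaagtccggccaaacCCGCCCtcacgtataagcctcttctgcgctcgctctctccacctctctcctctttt
Cux2 (chr12:40179032-40179281, plus strand): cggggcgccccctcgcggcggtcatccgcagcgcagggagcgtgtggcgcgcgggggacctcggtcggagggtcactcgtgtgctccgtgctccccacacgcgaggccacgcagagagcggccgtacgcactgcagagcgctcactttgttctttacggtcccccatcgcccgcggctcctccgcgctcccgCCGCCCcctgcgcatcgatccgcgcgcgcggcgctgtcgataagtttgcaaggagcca

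On both strands, the windows were searched for the TATA box TATAAA, the GC box GGGCGG, the cAMP response half-site TGACG, the ROR half-site AGGTCA, the ETS site CCGGAAGT and the MEF2 consensus. Among these letters only the GC box was found, and it lay in all 4 windows and in 30.5% of the 33469 promoter windows of the same length in the table. Etv1 held a pair of GC boxes on the minus strand that overlapped by a base, at 94 to 89 and 89 to 84 bases before the start. Rorb held 2 on the minus strand, Cux2 held 1 on the minus strand and Nrgn held 1 on the plus strand. The TATA box occurred in 12.9% of all windows and the MEF2 consensus in 2.96%. The windows of Cux2 and Rorb were 72.4% and 64.0% G and C, those of Nrgn and Etv1 58.0% and 52.4%, and the median of all windows was 51.2%. These matches describe the letters of the windows and carry no measure of binding.

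No change after ethanol was detected for any of the 8 genes by edgeR's quasi-likelihood test. The adjusted p was 0.9999 for each after Benjamini-Hochberg adjustment over the 18141 genes tested. An adjusted p below 0.2 was reached by 0 of the 8 genes and by 0% of all genes tested. At an unadjusted p below 0.05 the count was 0 of 8, against 4.21% of all genes, and counting higher genes only it was 0 of 8 against 1.59%. With DESeq2, 0 of the 8 reached an adjusted p below 0.2, where 0.408% of all genes did. The count was also 0 of 8 with edgeR's likelihood ratio test, which called 0.424% of all genes, and with limma-voom, which called 0%. For no member did the 3 ethanol libraries all lie above the controls, which was so for 3.65% of all genes, or all below, for 5.19%. The log2 fold change was positive for 7 of the 8 genes, where 52.7% of all genes were positive, and its median was 0.13 beside 0.01 over all genes tested. The largest was 0.25, for Mef2c.

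Mef2c, a MADS-box transcription factor that controls synapse number in excitatory neurons, spans bases 11658534 to 11822788 of chromosome 2 (Rnor_6.0, the build of all gene positions given here). It was read at 246, 262 and 297 CPM in control replicates 1, 2 and 3 and at 366, 358 and 231 CPM in ethanol replicates 1, 2 and 3. Ethanol replicates 1 and 2 lay above every control and ethanol replicate 3 below every control. The log2 fold change was 0.25 (standard error 0.17, 95% interval -0.15 to 0.64).

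Etv1, an ETS-family activator found in deep-layer cortical projection neurons, lies on chromosome 6 from 58467215 to 58558640. The controls were tightly grouped at 158, 172 and 156 CPM, whereas the ethanol libraries stood at 193, 213 and 90.4 CPM. Again ethanol replicates 1 and 2 exceeded all controls, and ethanol replicate 3 was far below them. The control mean was 162 ± 8.88 CPM (SD, n = 3 libraries) and the ethanol mean 166 ± 66.0 CPM (SD, n = 3 libraries), with a log2 fold change of 0.03 (standard error 0.27, 95% interval -0.60 to 0.66).

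Rorb, an orphan nuclear receptor best known from middle-layer cortical neurons, lies on chromosome 1 from 234252757 to 234442597. It was read at 59.1, 54.6 and 69.0 CPM in controls and at 62.1, 57.0 and 71.3 CPM after ethanol, so that the groups overlapped almost fully. Cux2, a homeobox factor of upper-layer neurons on chromosome 12 from 40016774 to 40221067, was read at 49.1, 49.5 and 46.0 CPM in controls. After ethanol it was read at 54.6, 46.9 and 63.8 CPM. In both genes the highest value of all 6 libraries was that of ethanol replicate 3, the library in which Etv1 and Mef2c were lowest. Their log2 fold changes were 0.06 (standard error 0.11, 95% interval -0.20 to 0.32) and 0.19 (standard error 0.11, 95% interval -0.06 to 0.44).

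Lmo3, a LIM-only cofactor that binds no DNA itself and acts through partner proteins, lies on chromosome 4 from 172942023 to 173005630. Its levels were 161, 146 and 171 CPM in controls and 202, 174 and 161 CPM after ethanol. Ethanol replicate 1 stood well above the controls and ethanol replicate 2 narrowly above them, and ethanol replicate 3 fell within their range (log2 fold change 0.17, standard error 0.10, 95% interval -0.06 to 0.40).

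Rspo2, a secreted R-spondin that binds LGR receptors and strengthens Wnt signalling, lies on chromosome 7 from 81919911 to 82059659. It was the most variable of the 8 genes, with 11.6, 28.3 and 20.5 CPM in controls and 19.6, 29.0 and 7.37 CPM after ethanol. The highest library exceeded the lowest 2.43-fold within the controls and 3.93-fold within the ethanol group. Counts of 513 to 2007 stand behind these values. The SD of log2 CPM, 0.65 in controls and 1.01 after ethanol, was larger than for 99.5% and 99.8% of the 11936 genes with a control mean of at least 5 CPM. Its log2 fold change was -0.11 (standard error 0.47, 95% interval -1.21 to 0.99), the widest interval of the 8 genes.

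Thy1, a glycolipid-anchored surface protein of projection neurons whose promoter is widely used to drive transgenes in them, lies on chromosome 8 from 48382121 to 48387271. It was read at 682, 753 and 648 CPM in controls and at 774, 840 and 704 CPM after ethanol. Ethanol replicates 1 and 2 lay above all controls, and ethanol replicate 3 lay within the control range (log2 fold change 0.15, standard error 0.10, 95% interval -0.07 to 0.38). Nrgn, neurogranin, a postsynaptic protein that binds calmodulin when calcium is low, lies on the same chromosome from 40015049 to 40023193. It was read at 786, 965 and 800 CPM in controls and at 931, 1071 and 731 CPM after ethanol, and the ranges overlapped (log2 fold change 0.10, standard error 0.15, 95% interval -0.25 to 0.45).

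**Figure D2:**
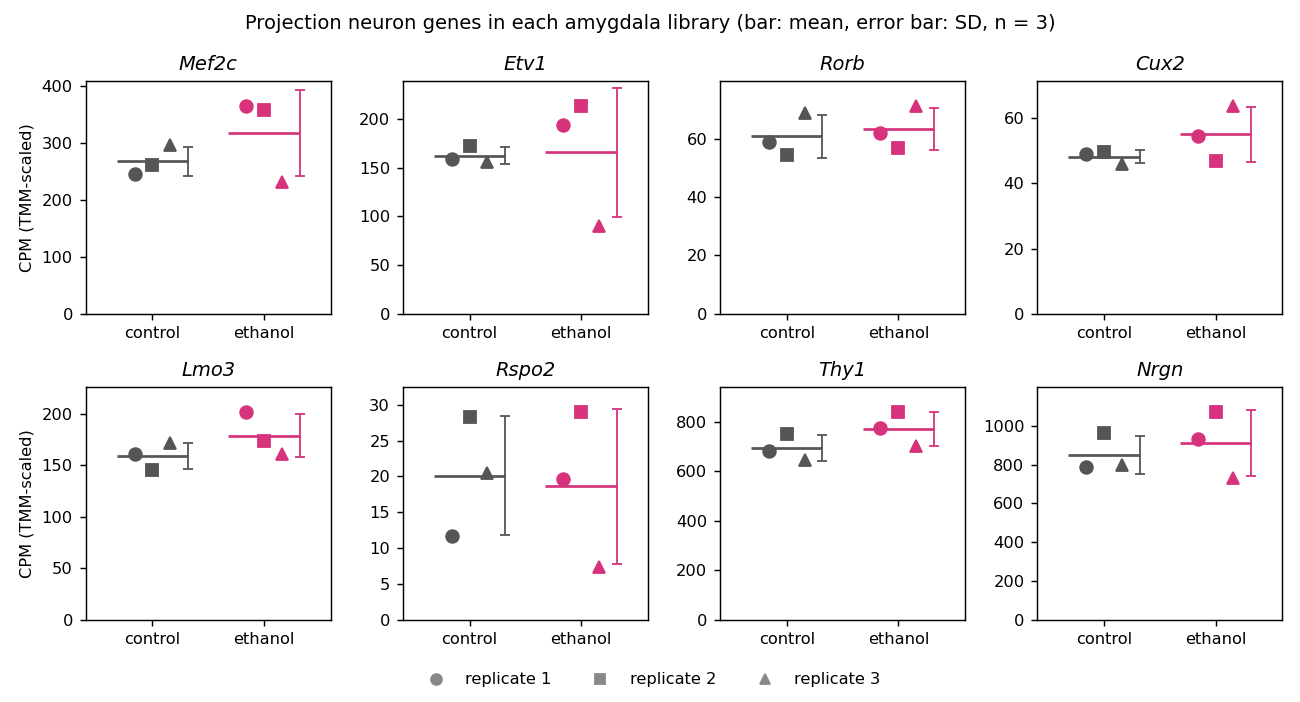
TMM-scaled CPM of the 8 genes in each library, in panels that start at 0; marker shape gives the replicate, the bar the mean and the error bar the SD (n = 3 per group). Ethanol replicate 3 is the lowest of the 6 libraries for Mef2c, Etv1, Rspo2 and Nrgn and the highest for Rorb and Cux2.

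For several of the genes the ethanol libraries differed more from each other than the controls did. On the log2 CPM scale, the SD between ethanol libraries was 0.68 for Etv1, 0.37 for Mef2c and 0.28 for Nrgn, beside a median of 0.10 over the genes with a control mean of at least 5 CPM. The same genes had SDs of 0.08, 0.14 and 0.16 between controls, where the median was 0.09. Thy1 and Lmo3 varied less, with SDs of 0.13 and 0.17 between ethanol libraries.

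Ethanol replicate 3 was the lowest of the 6 libraries for 4 of the 8 genes (Mef2c, Etv1, Rspo2 and Nrgn), where 20.9% of all genes tested were lowest there. It was the highest for 2 of 8 (Rorb and Cux2), a share close to the 22.7% of all genes. Against the control mean, Rspo2 differed by -1.45 and Etv1 by -0.84 on the log2 scale in this library, while Cux2 differed by 0.40 and Rorb by 0.23. Among the other glutamatergic projection neuron genes, 10 of 15 were also at their lowest there. Neurod6, a factor of pallial excitatory neurons, was at 11.0 CPM there. It was at 23.9 to 47.3 CPM in controls and at 42.4 and 55.7 CPM in ethanol replicates 1 and 2. Fezf2, of deep-layer projection neurons, was at 19.1 to 25.4 CPM in controls and at 23.7 and 29.3 CPM in those 2 libraries. In ethanol replicate 3 it was at 10.2 CPM. Slc17a6, another gene of that list, went the other way and was at its highest there, at 135 CPM against 79.2 to 114 CPM elsewhere. Slc17a7, at 425 CPM, and Tbr1 were not at their lowest there. Neurod6, Fezf2, Slc17a6 and this library were singled out after their values were seen.

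Markers of some other cells moved with this library. The GABA interneuron sum was 885 CPM there, within the control range of 839 to 1093 CPM. The endothelial and mural sum, 163 CPM, was also within its control range, 159 to 174 CPM. The microglia sum was 277 CPM there and 279 CPM in ethanol replicate 1. The summed level of 6 oligodendrocyte genes was 9727 CPM in ethanol replicate 3, beside 4355 and 6022 CPM in the other ethanol libraries and 3549 to 8379 CPM in controls, and 5 of the 6 genes were at their highest there. The 6 astrocyte genes summed to 6728 CPM, beside 4818 and 4851 CPM in the other ethanol libraries and 4657 to 5842 CPM in controls, and 4 of the 6 were at their highest. Pmch, the melanin-concentrating hormone precursor of lateral hypothalamic neurons, was at 207 CPM there and at 2.12 to 14.5 CPM in the other 5 libraries. The 5 hypothalamic genes together were at 325 CPM against at most 110 CPM elsewhere, and most of the 325 CPM was Pmch. Of the 5, 4 were at their highest there, Avp narrowly (69.1 CPM against 60.3 CPM in control replicate 1). Oxt was not, at 27.8 CPM against 39.2 CPM in control replicate 1. The 11 striatal-type and central amygdala genes summed to 601 CPM, the highest of the 6 libraries (390 to 567 CPM in controls, 551 and 417 CPM in ethanol replicates 1 and 2). Of these 11 genes, 6 were at their highest there. Penk, with the highest mean of the list, was not, at 193 CPM against 224 CPM in control replicate 1 and 257 CPM in ethanol replicate 1. Ppp1r1b, 1 of the 6, was at 142 CPM there and at 73.4 to 93.0 CPM in the other 5 libraries. Which cells made Ppp1r1b cannot be told from bulk tissue. The 8 choroid plexus genes that passed the filter summed to 484 CPM in ethanol replicate 3 and to 522 to 1131 CPM in controls, but to 12.03 and 13.12 CPM in ethanol replicates 1 and 2. Their part in the values of the 8 genes was not tested.

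Control replicate 1 shared some of this pattern without ethanol. It had the lowest Rspo2 (11.6 CPM), Slc17a7 (413 CPM) and Nrgn (786 CPM) of the controls and the highest oligodendrocyte sum, 8379 CPM. Etv1, at 158 CPM, and Cux2, at 49.1 CPM, were within the range of the other controls. Control replicate 2 was the opposite case, with the highest Rspo2, Slc17a7, Nrgn and Thy1 of its group and the lowest oligodendrocyte sum. In each group Rspo2 was lowest in the library with the highest oligodendrocyte sum. The reverse did not hold after ethanol, where Rspo2 was highest in replicate 2 (29.0 CPM) and the oligodendrocyte sum was lowest in replicate 1 (4355 CPM). The part of tissue composition in the level of Rspo2 was not tested.

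**Figure D3:**
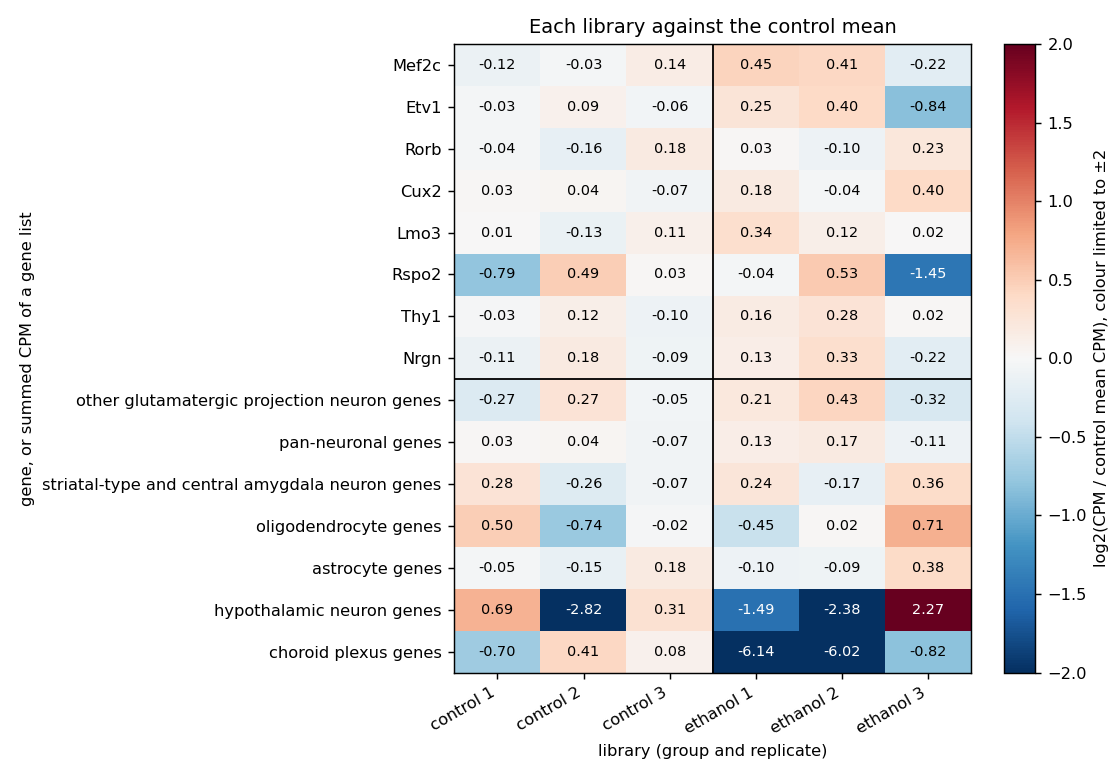
Each library against the control mean, as log2 of the CPM ratio, for the 8 genes (above the line) and for the summed CPM of 7 gene lists (below it); the number in each cell is the value and the colour stops at ±2. Ethanol replicate 3 is low for Rspo2 (-1.45) and Etv1 (-0.84) and high for the hypothalamic (2.27) and oligodendrocyte (0.71) lists. Most of the hypothalamic sum in that library is Pmch.

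Each library was left out in turn. Ethanol replicate 3 holds the lowest Mef2c, Etv1, Rspo2 and Nrgn values of all libraries. It also holds the lowest Lmo3 and Thy1 values of the ethanol group. Leaving it out therefore raises all of these genes by construction, and narrows the spread of Mef2c and Etv1. The values without it are a description. The log2 fold change was then 0.43 for Mef2c (standard error 0.08), 0.33 for Etv1 (standard error 0.07), 0.24 for Lmo3 (standard error 0.09) and 0.22 for Thy1 (standard error 0.08). Each had an unadjusted p below 0.05 in edgeR's quasi-likelihood test, and each was higher in both remaining ethanol libraries than in any control. Of all genes, 4.51% met the first rule with a higher level and 14.2% met the second, beside 4 of 8 for both. The library was singled out after its values were seen, so these counts do not test the 8 genes as a group. Both libraries lay below the controls for 0 of 8 genes, against 13% of all genes. None passed the adjusted threshold, which 0.447% of all genes passed in this fit: edgeR's adjusted p was 0.245 for Mef2c, 0.300 for Etv1 and 0.532 for Lmo3 and Thy1. For Rspo2 the log2 fold change was then 0.27 (standard error 0.34), for Nrgn 0.24 (0.11), for Cux2 0.07 (0.08) and for Rorb -0.03 (0.10). The 2 remaining ethanol libraries are also those with the lowest choroid plexus sums, whose part in these values was not tested. Without ethanol replicate 2 instead, Cux2 was the 1 gene of 8 that was higher at an unadjusted p below 0.05 (log2 fold change 0.30, standard error 0.09), where 1.46% of all genes were. The count was 0 of 8 without ethanol replicate 1 and without control replicate 1, 2 or 3, where 1.56%, 1.38%, 1.72% and 1.25% of all genes were higher by the same rule.

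**Figure D4:**
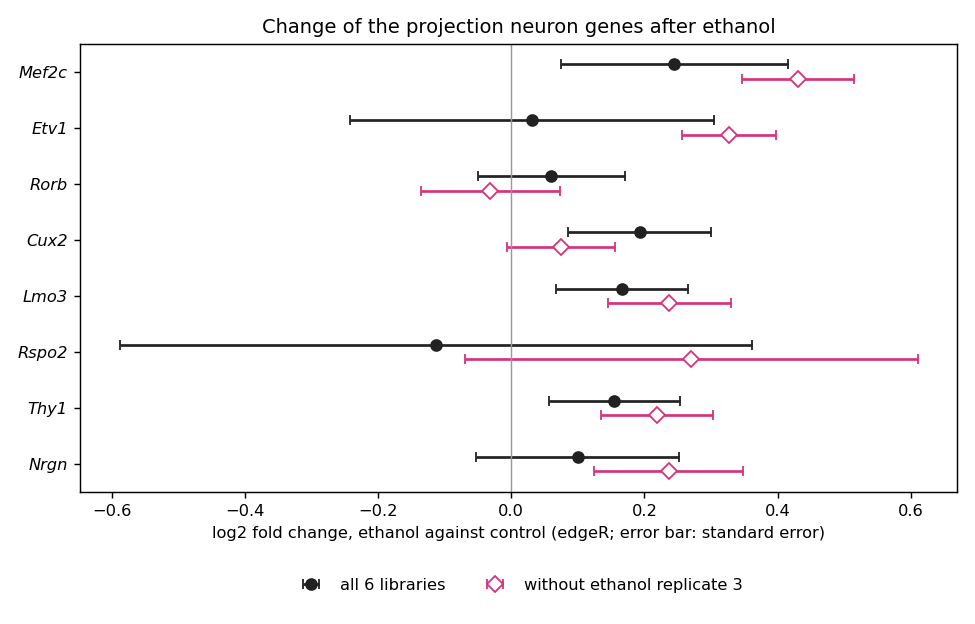
Log2 fold change of ethanol against control for the 8 genes (x axis) from edgeR, with all 6 libraries (filled circles) and without ethanol replicate 3 (open diamonds); bars are standard errors. Mef2c moves from 0.25 to 0.43 and Etv1 from 0.03 to 0.33, and their standard errors are smaller without the library that is lowest for both.

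A ratio to pan-neuronal genes allows for differences in the share of all neurons, but not in the share of projection neurons among them. Each gene was set against 8 pan-neuronal genes (Snap25, Syt1, Stmn2, Rbfox3, Nefl, Nefm, Tubb3 and Map2) within each library. Relative to their geometric mean, the ethanol group differed from controls by 0.12 for Mef2c, -0.16 for Etv1, -0.04 for Rorb, 0.09 for Cux2, 0.07 for Lmo3, -0.32 for Rspo2 and -0.01 for Nrgn on the log2 scale. Their 2-sided exact permutation tests gave p of 0.6 to 1.0. Only for Thy1 among the 8 tests did the groups not overlap, by a narrow margin. Its log2 ratio was 0.457, 0.505 and 0.491 in controls and 0.524, 0.525 and 0.579 after ethanol. The difference was 0.06 (exact permutation p = 0.1, the smallest that 3 libraries against 3 allow). The share of all genes tested without overlap in this ratio was not computed, so Thy1 has no background to be set against. When each library was left out in turn, 6 of the 8 differences changed sign. They ran from -0.68 to 0.16 for Rspo2, -0.32 to 0.15 for Etv1, -0.11 to 0.27 for Cux2, -0.21 to 0.11 for Rorb, -0.04 to 0.17 for Lmo3 and -0.06 to 0.06 for Nrgn. Mef2c stayed positive at 0.02 to 0.25, as did Thy1 at 0.04 to 0.07. Etv1 and Rspo2 were positive only without ethanol replicate 3, and Cux2 was negative only without it. With Snap25 alone as the denominator, the Thy1 ratios did overlap (difference 0.04, exact permutation p = 0.5).

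Relative to Slc17a7, the 8 differences lay between -0.40 for Rspo2 and 0.05 for Mef2c, with exact permutation p of 0.3 to 1.0. Leaving out each library in turn changed the sign of 6 of them. The ranges were -0.19 to 0.21 for Mef2c, -0.48 to 0.21 for Rorb, -0.38 to 0.37 for Cux2, -0.30 to 0.26 for Lmo3, -0.23 to 0.20 for Thy1 and -0.21 to 0.09 for Nrgn. Rspo2 stayed negative at -0.58 to -0.11, as did Etv1 at -0.41 to -0.03. The ratio of Rspo2 to Slc17a7 was -5.15, -4.77 and -4.76 in controls on the log2 scale and -5.09, -4.92 and -5.85 after ethanol. The SD of this ratio was 0.22 between controls and 0.49 between ethanol libraries, beside 0.65 and 1.01 for the log2 CPM of Rspo2. For the other 7 genes the control SD was larger for the ratio than for log2 CPM, at 0.31 to 0.54 against 0.06 to 0.17. For Etv1 the ratio in ethanol replicate 3, -2.23, was close to that of control replicate 2, -2.16. Cux2 and Rorb went the other way, and in ethanol replicate 3 their ratios of -2.74 and -2.58 were the highest of the 6 libraries.

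Among the 12 tested relatives of the transcription factor members, 0 passed the adjusted threshold, 1 was higher and 0 lower at an unadjusted p below 0.05 in edgeR's test. The higher gene was Mef2d, a paralog of Mef2c, at 206, 208 and 200 CPM in controls and 244, 234 and 212 CPM after ethanol, without overlap (log2 fold change 0.17, standard error 0.07). Mef2a was at 155 to 173 CPM in controls and 143 to 195 CPM after ethanol, with its lowest value in ethanol replicate 3 as for Mef2c. Etv4 did not overlap between groups either and was lower after ethanol, at 11.3 to 11.8 CPM against 12.2 to 13.2 CPM in controls. So 1 of the 12 lay wholly above the controls and 1 wholly below, beside 3.65% and 5.19% of all genes tested. The median log2 fold change of these relatives was 0.01.

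Of the 15 R-spondin and Wnt pathway genes, 0 passed the adjusted threshold and 0 had an unadjusted p below 0.05 in edgeR's test. The median log2 fold change was -0.09, and 11 of the 15 values were negative. For 2 of the 15, Lrp6 and Lef1, all 3 ethanol libraries lay below all controls, beside 5.19% of all genes tested. For 0 of the 15 they all lay above, beside 3.65%. The receptor Lgr4 was at 61.0 to 64.7 CPM in controls and 60.9 to 62.6 CPM after ethanol, and Ctnnb1, the intracellular effector beta-catenin, had a log2 fold change of 0.04 (standard error 0.07). The paralogs Rspo1 and Rspo3 were read at 1.34 to 2.58 CPM and 3.49 to 8.96 CPM, and were chosen after their values were seen. Rspo3 was lowest in ethanol replicate 1, at 3.49 CPM, and stood at 5.37 CPM in ethanol replicate 3, where Rspo2 was lowest.

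The 9 genes listed with neurogranin for calmodulin or the synapse had positive log2 fold changes throughout, from 0.05 to 0.24, with a median of 0.09. Values were also positive for 52.7% of all genes tested and for 7 of the 8 pan-neuronal genes. The largest was that of Pcp4, at 118 CPM in ethanol replicate 3 and 58.3 to 77.7 CPM elsewhere. None of the 9 genes passed either threshold in edgeR's test. Ppp3r1, the regulatory subunit of calcineurin, was like Nrgn lowest of all in ethanol replicate 3, at 717 CPM against 794 to 922 CPM elsewhere.

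Of the 15 other glutamatergic projection neuron genes, 0 passed the adjusted threshold and Tbr1, a T-box factor of pallial neurons, was higher at an unadjusted p below 0.05. It stood at 13.7 to 15.1 CPM in controls and 20.01 to 22.8 CPM after ethanol (log2 fold change 0.55, standard error 0.08), and was above every control also in ethanol replicate 3, where Etv1 and Rspo2 were at their lowest. The median log2 fold change of the 15 genes was 0.07. Slc17a7 and Cdh13, a cadherin of projection neurons, had log2 fold changes of 0.18 (standard error 0.29) and 0.04 (standard error 0.11). Among 8 genes of neighbouring cortex and claustrum, 0 had an unadjusted p below 0.05 and the median was 0.10. Lamp5 lay above all controls in all 3 ethanol libraries, as 3.65% of all genes did (log2 fold change 0.15, standard error 0.07). Rasgrf2, a Ras exchange factor of upper-layer neurons, was at 0.16 (standard error 0.18).

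For the other cell types, 0 genes passed the adjusted threshold. The median log2 fold change was 0.18 for 11 striatal-type genes, among them Penk and Ppp1r1b at 0.18 and 0.34, and -0.04 for 7 GABA interneuron genes. Lhx6, a factor of medial ganglionic eminence interneurons, was lower at an unadjusted p below 0.05 (log2 fold change -0.26, standard error 0.10), and Gad1 and Gad2 were at -0.08 and -0.09. Medians were 0.11 for 8 pan-neuronal genes (Snap25 0.12, Map2 -0.03), 0.18 for 6 oligodendrocyte genes (Mbp 0.24) and 0.07 for 6 astrocyte genes (S100b 0.07, Aqp4 0.07). They were -0.06 for 5 microglia genes (Csf1r 0.11, C1qa 0.15) and 0.02 for 4 endothelial and mural genes (Flt1 -0.09, Cldn5 0.05). The 8 choroid plexus genes had a median of -1.91, and Folr1, Kl, Kcnj13 and Sostdc1 were lower at an unadjusted p below 0.05, while Ttr, the thyroxine carrier transthyretin, was at -2.39 (standard error 1.49) and Clic6 at -1.84 (standard error 0.83). The 5 hypothalamic genes had a median of 1.07, with Pmch at 3.21 (standard error 1.63) and Avp at -0.32 (standard error 1.09), and 4 of them were highest in ethanol replicate 3.

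The genes whose profile over the 6 libraries was most like that of the 8 genes, by Pearson's r with the mean of their standardised log2 CPM, were Wfs1 (r = 0.995), Tox4 (r = 0.993), the gene with NCBI number 102549290 (r = 0.992), Slco4c1 (r = 0.991) and Kcnk1 (r = 0.990). They are the top of 18133 genes compared over 6 points, so values this high are a description only. Wfs1, the endoplasmic reticulum protein wolframin, was at 186, 207 and 207 CPM in controls and 293, 284 and 182 CPM after ethanol. Kcnk1, a potassium leak channel, was at 77.8 to 86.6 CPM in controls and at 99.1, 101 and 79.1 CPM after ethanol. Both had the same shape as Mef2c, with ethanol replicates 1 and 2 above all controls and ethanol replicate 3 near or below them.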

How the data were processed

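Reads from 6 strand-specific amygdala libraries, single-end and 100 nt long, had been aligned to Rnor_6.0, per the labels with STAR 2.7.0f. The authors deposited raw counts per gene, made with featureCounts in Subread 1.6.3 at the reverse-stranded setting (2), per the file headers. The header sets no option to count multi-mapping or multi-overlapping reads, and the values carry no normalization. No exon of the 8 genes overlaps another gene on its own strand. Symbols came from a RefSeq table for 29322 of 38445 identifiers.

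The analysis used edgeR 4.0.16 under R 4.3.3, after a filterByExpr filter (minimum 10 counts, 15 in total) that left 18141 genes. TMM factors lay between 0.976 and 1.01. Ethanol was set against control by the quasi-likelihood F test. Benjamini-Hochberg adjustment ran over all genes tested, at the threshold of 0.2 used in the study. A standard error is the absolute log2 fold change over the square root of F. Log2 CPM carries a prior count of 2, and ratios within a library use CPM without one. TPM was computed from counts and counted length. An exact permutation test over 6 libraries goes through 20 splits and cannot give a p under 0.1. Alternatives were other scalings, no filter, DESeq2 1.42.0, edgeR's likelihood ratio test, limma-voom 3.58.1, the replicate number as a block and each library left out. The fits were also run on simulated counts, drawn for each gene on its own. Those counts held no shifts shared by many genes of a library, so they do not cover such shifts.

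The genes and lists were chosen with earlier results of these data known. Besides the 8 genes, those named are, of each list, the genes with an unadjusted p below 0.05 and the 2 with the highest mean CPM. Also named are the 5 most alike in profile and others chosen after their values were seen. The pan-neuronal genes are also listed as the denominator of a ratio. Some listed genes that this rule names are not reported here. Eno2 and Otx2 were among the listed genes that did not pass the filter. The detection floor of 3 counts was 0.0424 to 0.0479 CPM and covers counting error only, whereas the 95% intervals of fold changes carry the spread between libraries. Promoter windows came from RefSeq's GRCr8 table, which was not mixed with positions in Rnor_6.0.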

Additional observations from a re-analysis of the deposited data

How the results depend on the processing

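For the 8 genes, the count past the adjusted threshold was 0 with all 13 alternatives, and the lowest adjusted p among those 104 values was 0.245 (Mef2c, edgeR without ethanol replicate 3). The sign changed in 10 of them, all in Etv1, Rorb, Rspo2 and Nrgn, whose log2 fold changes were smaller in size than their standard errors. Rspo2 went from -0.11 to 0.22 without control replicate 2 and to 0.27 without ethanol replicate 3. Etv1 went to -0.00246 with library size alone, to -0.0598 with limma-voom and to -0.0584 with the replicate block. Leaving out each library in turn gave -0.19 to 0.33 for Etv1, -0.0312 to 0.16 for Rorb, -0.58 to 0.27 for Rspo2 and -0.0325 to 0.24 for Nrgn. It gave 0.13 to 0.43 for Mef2c, 0.07 to 0.30 for Cux2, 0.07 to 0.24 for Lmo3 and 0.09 to 0.22 for Thy1. Over all genes, 0 passed with edgeR's quasi-likelihood test (763 at an unadjusted p below 0.05), 74 with DESeq2, 77 with edgeR's likelihood ratio test and 0 to 82 without a single library, with 82 without ethanol replicate 3 and 4 without ethanol replicate 1. Library size alone moved the median log2 fold change of all genes from 0.01 to -0.02. The cause of these differences was not tested.

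Control and ethanol libraries share the replicate numbers 1, 2 and 3 but hold pools of different rats. Over 14241 genes, deviations from the group means correlated by 0.0264, 0.388 and 0.211 for libraries of the same number, and control replicate 1 correlated best with ethanol replicate 3 (0.305), so not every library was closest to its own number. With the replicate number as a block, 0 genes passed and 1030 had an unadjusted p below 0.05, and 0 of the 8 genes were called.

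The 8 genes had at least 513 counts in every library, and each group had 3 libraries.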
